A study of Drosophila melanogaster with 14 samples.

Results

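The subject here is the testis of *Drosophila melanogaster* males mutant for mip40, set against the wild-type (wt) testis. Both mip40 libraries and both wt libraries were taken by their labelled genotype, 4 of the 14 libraries of the series, and the mip40/bam double mutant was kept out of this comparison. Each library was made from polyadenylated RNA of 50 testes of males aged 3 days kept at 23 °C, and each genotype had 2 libraries that the labels describe as biological replicates. The other genotypes used below were mutants of comr, can and bam and the double mutant mip40/bam, also with 2 libraries each, while the 2 libraries of CG9879 mutants entered the fit without a comparison of their own. The labels name neither the alleles nor the genetic background, so whether the mip40 allele removes all function cannot be read from the data. Since 50 testes were pooled in a library, the spread between 2 libraries is that between pools and not between animals.

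In the fly testis, germline stem cells at the apical hub give rise to spermatogonia, which divide, become spermatocytes, grow while transcribing many testis-specific genes, pass through meiosis and form spermatids that elongate into sperm. Mip40 is a subunit shared by the testis meiotic arrest complex (tMAC), which acts in spermatocytes, and by the dREAM/MMB complex of E2F, Rbf and Myb proteins, which represses or activates genes in many cell types. Comr is a subunit of tMAC, and can encodes a testis-specific TBP-associated factor (tTAF), also needed in spermatocytes. Mutants of these genes are known for arresting spermatocytes before meiosis. Bam is needed for spermatogonia to stop dividing, so that a bam mutant testis fills with spermatogonia-like cells and lacks spermatocytes.

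The deposited values are FPKM, fragments scaled to transcript length and to the mapped fragments of the library, and the tables imply 3450000 and 3620000 fragments in mip40 and 3210000 and 3370000 in wt, within a range of 3120000 to 7690000 over the series. Replicates correlated at r = 0.962 in mip40 and 0.96 in wt across genes, on log2(FPKM + 1). On the first principal component, which held 64.4% of the variance, the mip40 libraries lay at 16.4 and 29.4, between comr (-59.4 and -57.8) and can (73.5 and 75.2), with wt at 171.7 and 170.7 and bam at -185 and -191. Transcripts of 38 listed accessory gland and ejaculatory duct genes, of which 36 were tested, made up 0.00512% and 0.0044% of the summed FPKM in mip40, and 0.477% and 0.00291% in wt, where replicate 1 was the higher. They also made up 2.56% in comr replicate 2, 0.613% in can replicate 1 and 0.856% in CG9879 replicate 2, and at most 0.0557% in each other library. This difference between replicates enters the spread that the test uses. A lack of calls among these genes therefore cannot show that mip40 and wt were alike in them. None of the 36 genes was called, and without wt replicate 1 the count of genes called in mip40 against wt was 9041. Without all 4 libraries that held these transcripts it was 9171.

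The level of mip40 itself (FBgn0034430, chromosome 2R, 19291105 to 19292196 in release 6) gave no clear mark of the mutant against wt, since the call depended on the scaling. It was 20.8 and 20.2 FPKM in mip40 and 22.8 and 20.9 FPKM in wt, which gave a log2 ratio of -0.09 (SE 0.07, adjusted p = 0.315, limma) on the deposited values. After median-of-ratios scaling the log2 ratio was -1.15 and mip40 was called lower (limma adjusted p = 8.77e-07), and the authors' deposited table, described last, also lists it as lower. It averaged 102 FPKM in comr and 131 FPKM in can, and was lower in mip40 than in either (log2 -2.26 against comr and -2.61 against can). In mip40/bam it averaged 26.6 FPKM, against 59.8 FPKM in bam (log2 -1.14, limma adjusted p = 6.30e-06). Since the place of the lesion is not given, gene-level FPKM checks the label only in part.

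A total of 9500 of 12971 tested genes (73.2%) differed between mip40 and wt at an adjusted p under 0.05 (limma on log2(FPKM + 1), Benjamini-Hochberg adjustment). Of these 6202 (47.8% of those tested) were higher and 3298 (25.4%) lower in mip40. FPKM is relative to the mapped fragments of the library, and the 500 most abundant wt genes took 53.3% of the summed FPKM in wt. The 500 most abundant genes of mip40 took 41.3% in mip40. Median-of-ratios scaling moved the median log2 fold change of the 5014 genes with a mean of at least 10 FPKM in both groups by -1.09, to -0.31 against 0.77 for the deposited values. It gave 3325 genes as higher and 5329 as lower, so that 38.4% of the calls were higher, against 65.3% for the deposited values, and 742 calls changed direction. "Rose" and "fell" are therefore used below only of genes called in the same direction with and without this scaling: 3325 (25.6%) rose and 3298 (25.4%) fell, 51.1% in all. Of these, 318 of the genes that rose were listed at 0 in both wt libraries and 490 of those that fell were listed at 0 in both mip40 libraries. An exact 0 can be a failed estimate, and the counts of the lists below include such genes. Each list's rises and falls in mip40 against wt are to be read beside the 25.6% and 25.4% of all genes tested. Reads of genes that share an exon with another gene cannot be assigned with certainty, which among the genes named below holds, besides those marked where they are named, for bol, twe, dj, janB, Pif1A, Mst87F, nes, Prosbeta4, Prosbeta4R2, Dp, E2f2, mip130, l(3)mbt, Myb, Taf2, tbrd-1, lat, CycE, otu, Cep97, ana1, Msp300, Pxn, crq, Syx1A and eIF4G2. The deposited values of the 2 groups did not overlap for 82.5% of the genes tested. The shift between the scalings enters this share, and groups of 2 libraries can also lie apart by chance. The falls reached further, with 1030 genes down and 230 up at least 8-fold, and 319 down and 57 up at least 32-fold, on the log2(FPKM + 1) scale. Of the 3298 genes that fell, 2365 (71.7%) had a mean under 1 FPKM in bam, against 4611 of all 12971 genes tested (35.5%), and the same share was 13.8% among the genes that rose (459 of 3325).

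**Figure D1:**
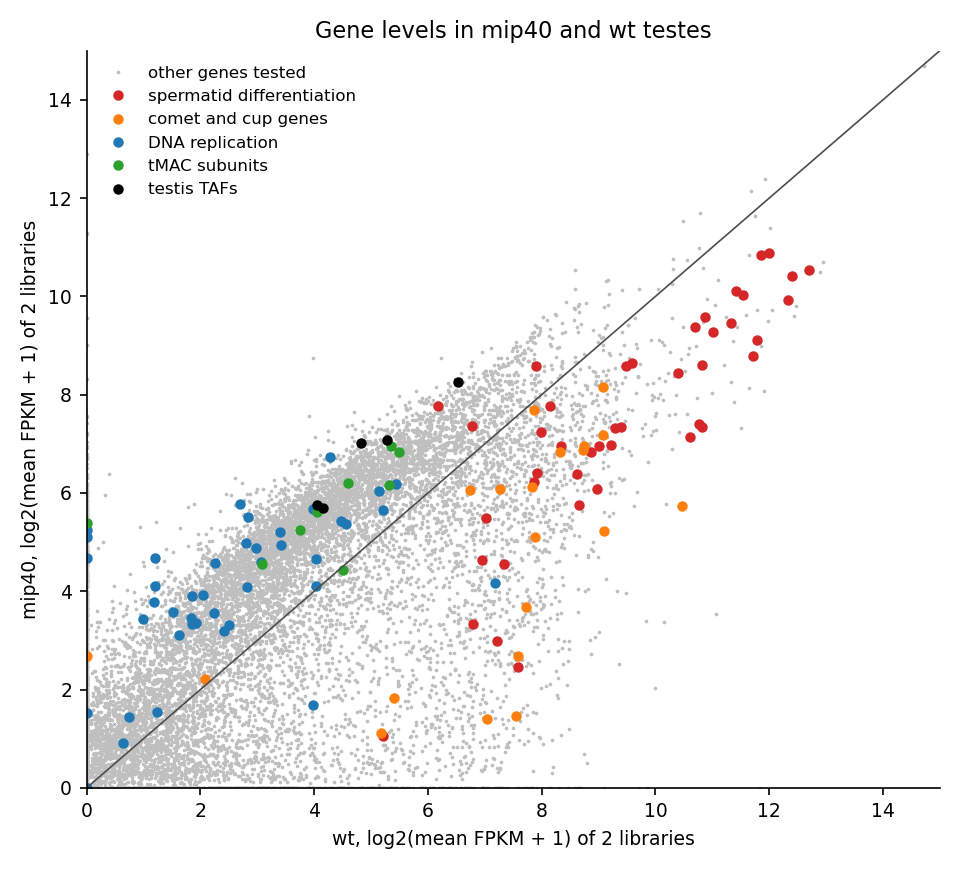
Mean level of each of 12971 tested genes in mip40 (vertical) and wt (horizontal), both as log2(mean FPKM + 1) of 2 libraries, with members of 5 gene lists in colour and the line of equal levels. Spermatid and comet and cup genes lie mostly under the line, and replication, tMAC and testis TAF genes mostly above it.

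Genes of sperm formation fell together. Spermatid differentiation genes numbered 43 among those tested: 39 of them fell and 1 rose, and their median log2 fold change was -1.98, or -3.09 with median-of-ratios scaling, against medians of 0.46 and -0.24 over all genes tested. In bulk tissue, fewer cells of a type and less RNA per cell cannot be told apart, and this holds for every list below. The sperm tail gene dj (don juan) was at 141 and 182 FPKM in mip40 and 1860.1 and 1738 FPKM in wt, with a log2 ratio of -3.48 (SE 0.22, limma adjusted p = 4.95e-07). The protamine-like gene Mst77F was at 165 and 173 FPKM in mip40 and 1754 and 1721 FPKM in wt (log2 -3.36). Both mip40 libraries lay far below both wt libraries for each of these genes. The protamine genes Mst35Ba and Mst35Bb, near-identical copies whose reads cannot be told apart with certainty, had log2 fold changes of -2.23 and -2.89. The testis beta-tubulin betaTub85D of the meiotic spindle and sperm axoneme was at 367 and 409 FPKM in mip40 and 1749 and 1845 FPKM in wt (log2 -2.21). The mitochondrial fusion gene fzo, used in making the nebenkern of the spermatid, was at 38.0 and 50.1 FPKM in mip40 and 137 and 122 FPKM in wt (log2 -1.54).

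The falls were graded within the list. The largest were those of Tektin-A, a gene of the axoneme, at 4.04 and 4.95 FPKM in mip40 and 186 and 195 FPKM in wt (log2 -5.13, SE 0.10, limma adjusted p = 4.34e-10), of Pif1A (-4.23) and of janB (-3.49). Among the smaller falls Mst98Cb, an axoneme component, was at 376 and 425 FPKM in mip40 and 752 and 786 FPKM in wt (log2 -0.94), and CG6091 had the smallest fall (-0.36). Several falling genes stayed abundant: Mst87F, of the tail, was at 1351 and 1641 FPKM in mip40 and 7070.4 and 6218 FPKM in wt, and ocn at 1007 and 1091 FPKM in mip40 and 3045 and 2942 FPKM in wt. The 1 gene of the list that rose was nes, a lysophospholipid acyltransferase of spermatid individualization, at 214 and 220.0 FPKM in mip40 and 72.5 and 70.4 FPKM in wt (log2 1.59, 0.49 with median-of-ratios scaling). Over the 44 listed genes with a value, the summed level was 16895 and 18811 FPKM in mip40 and 63294 and 61408 FPKM in wt.

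The comet and cup genes are known for being transcribed after meiosis, in spermatids. Of 20 tested, 17 fell and 0 rose, with a median log2 fold change of -1.88 (-2.98 with median-of-ratios scaling). The largest falls were those of t-cup, at 1.35 and 2.12 FPKM in mip40 and 195 and 177 FPKM in wt (log2 -6.1), of sunz, at 0.685 and 2.60 FPKM in mip40 and 136 and 126 FPKM in wt (-5.74), of wa-cup (-4.91) and of w-cup (-4.74). Among the smaller falls soti, an inhibitor of the ubiquitin ligase of sperm individualization, was at 254 and 314 FPKM in mip40 and 559.7 and 526 FPKM in wt (log2 -0.94). The values of t-cup rest on 3 and 5 implied fragments in mip40, so its fold is imprecise, while its direction is carried by 417 and 405 fragments in wt.

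Male fertility genes of the Y chromosome and axonemal dynein genes also mostly fell. Of 9 tested Y-linked genes 7 fell and 0 rose (median -1.39, or -2.42 with median-of-ratios scaling). The dynein heavy chain gene kl-2 was at 1.21 and 1.38 FPKM in mip40 and 10.8 and 10.9 FPKM in wt (log2 -2.36), kl-5 had -1.39 and kl-3 -1.31. The protein phosphatase gene Pp1-Y2 was at 2.53 and 1.85 FPKM in mip40 and 31.8 and 27.9 FPKM in wt (log2 -3.28). Of 12 tested axonemal dynein genes 8 fell and 1 rose (median -1.19, or -2.15 with median-of-ratios scaling). The light chain gene robl37BC was at 1.18 and 0.370 FPKM in mip40 and 153 and 133 FPKM in wt (log2 -6.38), and dtr, needed for dynein assembly, at 1.08 and 1.51 FPKM in mip40 and 95.8 and 95.1 FPKM in wt (-5.4). The member that rose, nop5, is a nucleolar protein gene and no dynein, and wtrw, among those that fell, encodes a TRP channel.

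The testis has its own copies of several proteasome subunits. Of 14 testis proteasome genes 8 fell and 0 rose (median -1.01, or -2.10 with median-of-ratios scaling). The strongest was Prosbeta5R1, at 0.691 and 0.870 FPKM in mip40 and 172 and 165 FPKM in wt (log2 -6.57, SE 0.12, limma adjusted p = 3.85e-10), followed by Prosbeta4R2 (-6.36), Prosalpha4T2 (-4.59) and Prosalpha3T (-4.38). Of 31 genes of the general proteasome, 9 rose and 0 fell. All 31 were called higher on the deposited values (median 1.05), but the median was -0.04 with median-of-ratios scaling. The catalytic core gene Prosbeta4 was at 234 and 229.6 FPKM in mip40 and 58.5 and 57.2 FPKM in wt (log2 1.98, 0.89 with that scaling).

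**Figure D2:**
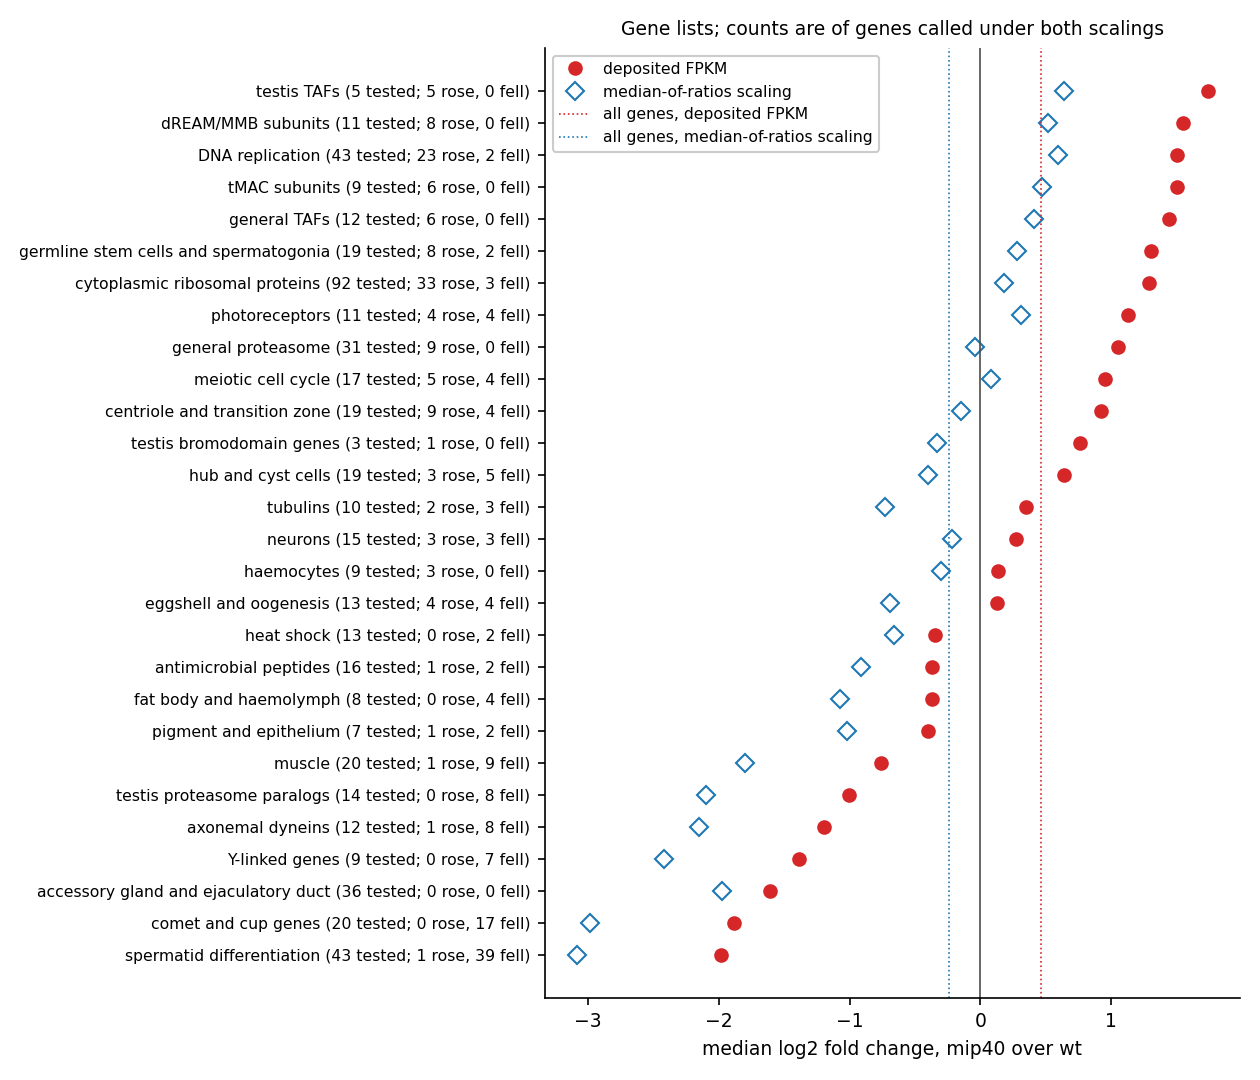
Median log2 fold change, mip40 over wt, of 28 gene lists for the deposited FPKM (filled circles) and after median-of-ratios scaling (open diamonds), with dotted lines at the medians of all genes tested (0.46 and -0.24). The spermatid, comet and cup, Y-linked, dynein and testis proteasome lists lie below 0 on both scales, and the tMAC, dREAM/MMB, testis TAF and DNA replication lists above 0 on both. Other lists do so too, among them the muscle and accessory gland lists below 0 and the general TAF, ribosomal and photoreceptor lists above 0.

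The genes that drive the meiotic divisions did not move as 1 group. Of 17 tested, 5 rose and 4 fell (median 0.95, or 0.08 with median-of-ratios scaling). Cyclin B (CycB) was at 202 and 216 FPKM in mip40 and 79.1 and 68.2 FPKM in wt, with a log2 ratio of 1.49 (SE 0.08, limma adjusted p = 1.75e-07) that was 0.40 with the scaling. Cyclin A (CycA) was at 215 and 236 FPKM in mip40 and 60.7 and 59.9 FPKM in wt (log2 1.88). The Cdk1 inhibitory kinase Myt1 had 1.84 and the checkpoint kinase BubR1 1.67. All of these rose. The Cdc25 phosphatase of meiosis, twine (twe), fell, at 51.2 and 56.6 FPKM in mip40 and 99.5 and 98.9 FPKM in wt (log2 -0.87, limma adjusted p = 1.15e-05). Its translational regulator boule (bol) fell as well, at 358 and 409.7 FPKM in mip40 and 697 and 713 FPKM in wt (-0.88, limma adjusted p = 4.18e-04). CycB3 (-0.10), the meiotic inhibitor rux (0.09) and the translation factor eIF4G2 (0.18) were not called on the deposited values. With the scaling the log2 ratios of rux and eIF4G2 turned negative. The authors' deposited table marks CycB3 as significantly lower, at 22.3 FPKM in mip40 and 41.8 FPKM in wt (log2 -0.90, Cuffdiff q = 2.07e-04). The cohesion protector mei-S332 was listed at 0 in both mip40 libraries and at 56.2 and 65.5 FPKM in wt, and it shares an exon with another gene.

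Several genes of other subunits of the complexes that hold Mip40 rose in its mutant. Of 9 tMAC genes, mip40 included, 6 rose and 0 fell (median 1.5, or 0.47 with median-of-ratios scaling). Of 11 dREAM/MMB genes, which share members with tMAC, 8 rose and 0 fell (1.54 and 0.52). With median-of-ratios scaling alone 2 were called lower in each list, topi and mip40 in tMAC and Myb and mip40 in dREAM/MMB. The rises include tomb in the first list and Rbf2 in the second, both listed at 0 in wt and both sharing an exon with another gene. The tMAC gene aly was at 40.8 and 32.9 FPKM in mip40 and 14.1 and 10.7 FPKM in wt (log2 1.5, 0.45 with the scaling). Its partner comr was at 23.3 and 21.7 FPKM in mip40 and 6.45 and 8.48 FPKM in wt (1.49, 0.47). The subunit genes wuc (1.61), achi (1.59) and Caf1 (1.58) rose likewise. The DNA-binding subunit topi was called higher on the deposited values (0.85), at 69.9 and 72.3 FPKM in mip40 and 39.4 and 38.7 FPKM in wt, and lower with the scaling (-0.24). The subunit gene tomb was at 40.9 and 41.2 FPKM in mip40 and listed at 0 in both wt libraries, and since it shares an exon with another gene no fold is given.

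Among dREAM/MMB genes Dp, the E2F partner, was at 43.4 and 47.3 FPKM in mip40 and 9.16 and 8.26 FPKM in wt (log2 2.26, SE 0.13, limma adjusted p = 3.12e-07). The subunit genes mip130 (log2 2.05) and mip120 (1.96), the repressive E2f2 (1.53), Rbf (1.48) and l(3)mbt (1.52) also rose. Myb, the activating subunit, was at 139.9 and 153 FPKM in mip40 and 88.7 and 98.2 FPKM in wt, higher on the deposited values (0.64) and lower with the scaling (-0.46). All 5 testis TAF genes rose (median 1.74, or 0.64 with the scaling). The tTAF gene can was at 58.5 and 47.6 FPKM in mip40 and 15.7 and 15.4 FPKM in wt (1.7), sa at 128 and 141 FPKM in mip40 and 40.8 and 35.2 FPKM in wt (1.8), and nht had 2.2, Taf12L 1.74 and mia 1.53. Of 12 general TAF genes 6 rose and 0 fell (1.44 and 0.41), with Taf2 at 56.6 and 56.9 FPKM in mip40 and 8.12 and 11.0 FPKM in wt. Of the 3 testis bromodomain genes only CG30417, which shares an exon with another gene, was called higher both ways, from values listed at 0 in both wt libraries. The authors' deposited table lists it at 32.8 FPKM in mip40 and 34.4 FPKM in wt, with no significant difference (q = 0.832). The genes tbrd-1 (0.74, -0.36 with the scaling) and CG7229 (0.76, -0.33) were called in opposite directions by the scalings.

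Several genes of early germline stages rose. Among 19 markers of the stem cells and spermatogonia of the germline 8 rose and 2 fell (median 1.3, or 0.28 with the scaling). The summed level of the list hardly differed, at 849 and 856 FPKM in mip40 and 817 and 853 FPKM in wt. Most of the wt sum came from aret, which fell, so the sum does not speak for the other members. The gap junction gene zpg was at 36.2 and 31.9 FPKM in mip40 and 7.72 and 5.86 FPKM in wt (log2 2.18), the germline RNA helicase gene vas at 57.8 and 51.5 FPKM in mip40 and 15.1 and 16.4 FPKM in wt (1.73), and otu had 1.82 and rhi 1.72. The germline genes aub and nos were listed at 0 in both wt libraries and at 71.5 and 71.9 FPKM and 21.4 and 18.7 FPKM in mip40, and both share an exon with another gene. The differentiation gene bam, which shares an exon with another gene, was at 29.99 and 31.4 FPKM in mip40 and 3.14 and 2.81 FPKM in wt (3.0, SE 0.50, limma adjusted p = 3.89e-04). Its partner bgcn was at 41.3 and 43.0 FPKM in mip40 and 39.5 and 37.9 FPKM in wt and was not called on the deposited values (0.12), while the scaling gave -0.96. The RNA-binding gene aret fell, at 163 and 183 FPKM in mip40 and 530.2 and 579 FPKM in wt (-1.68). In bam it averaged 103 FPKM, below its level in wt.

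Of 43 tested DNA replication genes 23 rose and 2 fell (median 1.5, or 0.59 with the scaling), against 25.6% and 25.4% of all genes. Replication genes are classical targets of E2F. The 4 largest rises, those of dup, Ts, RfC38 and Orc2, were from values listed at 0 in 1 or both wt libraries in genes that share an exon with another gene, so no fold is given. The ribonucleotide reductase subunit RnrS was at 54.4 and 52.4 FPKM in mip40 and 4.92 and 5.97 FPKM in wt (log2 3.08, SE 0.18, limma adjusted p = 2.62e-07, 2.08 with the scaling). The sliding clamp PCNA was at 112 and 98.0 FPKM in mip40 and 18.4 and 18.3 FPKM in wt (2.45), the clamp loader RfC4 had 2.65, the licensing factor Cdc6 2.6 and the exonuclease tos 2.45. Both members that fell stood apart from these: lat, which encodes the origin recognition subunit Orc3, was at 15.9 and 18.2 FPKM in mip40 and 151 and 136 FPKM in wt (-3.0), and the S-phase cyclin CycE at 2.20 and 2.25 FPKM in mip40 and 14.8 and 14.7 FPKM in wt (-2.28). In bam, lat averaged 30.5 FPKM and CycE 74.0 FPKM.

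Among 92 cytoplasmic ribosomal protein genes 33 rose and 3 fell. On the deposited values 88 were higher (median 1.29), and the median with the scaling was 0.18. These genes made up 7.62% and 7.45% of the summed FPKM in mip40 and 2.90% and 2.78% in wt, against 26.8% and 26.3% in bam. Since FPKM is scaled to transcript length, these are not shares of the fragments. The 3 that fell were the copies RpL10Aa, RpS28a and RpS28-like, of which RpS28-like shares an exon with another gene. Of 19 genes of centrioles and the transition zone 9 rose and 4 fell. The centriole gene ana3 was at 129 and 133 FPKM in mip40 and 19.8 and 18.5 FPKM in wt (2.71), Mks1 of the transition zone had 2.08 and Sas-4 2.02, while cnn fell, at 94.4 and 99.3 FPKM in mip40 and 288 and 295 FPKM in wt (-1.58), with Cep97 (-1.39) and ana1 (-0.97). Of 10 tubulin genes 2 rose and 3 fell. The falls were betaTub85D, alphaTub85E (-2.21) and alphaTub84D (-1.45), and gammaTub37C, the maternal gamma-tubulin, rose to 13.5 and 13.1 FPKM in mip40, against 0.999 and 0.855 FPKM in wt (2.89).

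**Figure D3:**
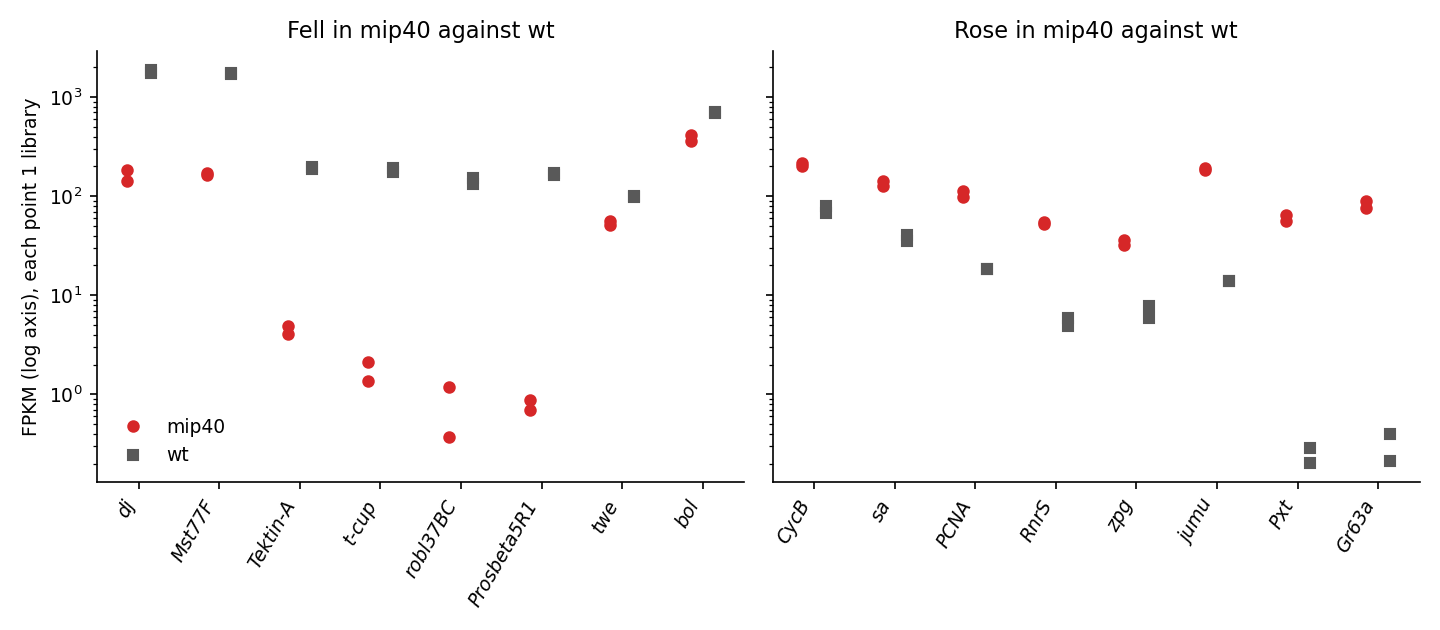
FPKM on a log axis of 8 genes that fell (left) and 8 that rose (right), with each mip40 library as a circle and each wt library as a square. The libraries of the 2 genotypes do not overlap for any of these genes, and the replicates lie closer to each other than to the other genotype.

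The genes with the largest changes of all were dominated by values listed at exactly 0. Among the 10 largest falls called under both scalings, CG43222, CG42560, CG12229, CG10365, CG14077, Rcd7, CG31407, CG30093 and CG15705 were listed at 0 in both mip40 libraries, with wt levels of 231 to 939.5 FPKM, and CG31816 was at 0.849 and 0 FPKM in mip40 and 464 and 428 FPKM in wt. The first 7 of these share an exon with another gene. The 10 largest rises were listed at 0 in both wt libraries: LSm-4, sesB, CG8297, CG42787, elfless and CG31957, which all share an exon with another gene, and 4 snoRNA genes. LSm-4 and sesB, an mRNA decay factor and the mitochondrial ADP/ATP carrier, serve every cell, so an exact 0 in these tables can be a failed estimate and no fold is given for any of them. The authors' deposited table lists CG31957 at 90.9 FPKM in mip40 and 57.4 FPKM in wt. It lists transcript RA of CG10365 at 32.9 FPKM in mip40 and 468 FPKM in wt. For these genes it keeps the direction but not the 0, while CG15705 stays low there, at 1 FPKM in mip40 and 360 FPKM in wt. That difference is not marked significant (Cuffdiff q = 0.198). Of the 230 genes that rose at least 8-fold, 169 (73.5%) share an exon with another gene and 160 were listed at 0 in both wt libraries, against 32.7% sharing an exon among all genes tested.

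The largest changes were therefore also taken among protein-coding genes that share no exon and were above 0 in all 4 libraries, a selection made after the values had been seen. The 10 largest falls there were CG12506, scpr-A, CG6209, CG4161, CG5139, CG13725, CG34457, CG15711, CG34170 and CG5122, with log2 fold changes of -8.0 to -6.84. CG6209 was at 0.187 and 0.271 FPKM in mip40 and 295 and 283 FPKM in wt (-7.88), resting on 2 and 3 implied fragments in mip40 and 2895 and 2976 in wt. CG34170 was at 4.83 and 4.62 FPKM in mip40 and 696 and 621 FPKM in wt (-6.85), resting on 2 and 2 implied fragments in mip40 and 347 and 331 in wt. The reads of scpr-A, at 3.01 and 3.14 FPKM in mip40 and 1166 and 869 FPKM in wt, cannot be told from those of its near-identical copy scpr-C. In bam these 10 genes averaged at most 4.81 FPKM.

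The largest rise in the same selection was that of Gr63a (chromosome 3L, 3894999 to 3896603), which encodes a subunit of the carbon dioxide receptor of the antenna. It was at 75.3 and 90.1 FPKM in mip40 and 0.214 and 0.402 FPKM in wt, with a log2 ratio of 6.0 (SE 0.19, limma adjusted p = 7.43e-09, 5.48 with the scaling), resting on 348 and 444 implied fragments in mip40 and 1 and 2 in wt. It was near 0 in comr (0.760 FPKM) and bam (0.304) and low in can (6.76). The peroxidase gene Pxt, of the eggshell, was at 65.2 and 56.7 FPKM in mip40 and 0.206 and 0.290 FPKM in wt (5.63), the protease gene Phae1 at 29.3 and 33.0 FPKM in mip40 and 0.220 and 0.206 FPKM in wt (4.73), and the laminin alpha gene wb at 48.0 and 59.6 FPKM in mip40 and 2.66 and 2.76 FPKM in wt (3.88). Further rises were wus (4.19), CG34323 (3.69), CG11263 (3.68), CG14905 (3.62) and kek4 (3.6). The forkhead factor gene jumu was at 185 and 191 FPKM in mip40 and 14.0 and 13.9 FPKM in wt (3.66), the glypican gene dlp at 74.3 and 71.9 FPKM in mip40 and 5.45 and 5.75 FPKM in wt (3.49), and the Polycomb group gene esc at 46.8 and 49.9 FPKM in mip40 and 3.62 and 4.59 FPKM in wt (3.28). Of 29 gustatory receptor genes tested, Gr63a included, 9 rose and 6 fell, and of 22 olfactory and 33 ionotropic receptor genes 11 and 14 rose and 3 and 11 fell. Over all genes tested 25.6% rose and 25.4% fell, and the receptor counts were given no test.

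Markers of somatic cells were mixed. Of 19 hub and cyst cell genes 3 rose and 5 fell, with summed levels of 264 and 275 FPKM in mip40 and 157 and 150.4 FPKM in wt. The hub ligand os (unpaired) was at 0.956 and 1.59 FPKM in mip40 and 11.3 and 11.3 FPKM in wt (-2.45), while the cadherin shg was at 54.6 and 52.0 FPKM in mip40 and 10.6 and 10.8 FPKM in wt (2.22), and the cyst cell gene eya changed direction with the scaling (0.64 and -0.40). Of 20 muscle genes 1 rose and 9 fell, with summed levels of 235 and 363 FPKM in mip40 and 542 and 545 FPKM in wt. The fall count rested on single libraries: on the deposited values 9 were lower with all libraries, 3 without mip40 replicate 1, 16 without mip40 replicate 2, 5 without wt replicate 1 and 4 without wt replicate 2. The nuclear anchor gene Msp300, at 5.54 and 8.15 FPKM in mip40 and 84.6 and 102 FPKM in wt, fell most (-3.6). Of 9 haemocyte genes 3 rose and 0 fell: Hml, at 24.2 and 27.7 FPKM in mip40 and 3.95 and 3.65 FPKM in wt (2.49), Pxn (1.93) and crq (1.9). The summed haemocyte list was 163 and 145 FPKM in mip40 and 52.5 and 39.8 FPKM in wt, with He listed at 0 in all 4 libraries and NimC1 and lz under 1 FPKM. Their part in the changes above was not tested.

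Against 51.1% of all genes called under both scalings, 6 of 15 neuronal and 8 of 11 photoreceptor genes were called. Of the 15 neuronal genes 3 rose and 3 fell, with Syx1A at 89.8 and 79.8 FPKM in mip40 and 14.4 and 16.2 FPKM in wt (2.39) and brp at 2.23 and 1.76 FPKM in mip40 and 11.4 and 12.7 FPKM in wt (-2.13). Of the 11 photoreceptor genes 4 rose and 4 fell, among them the channel gene trpl, at 14.2 and 15.5 FPKM in mip40 and 0.661 and 0.896 FPKM in wt (3.16), and the arrestin gene Arr1, at 1.02 and 0.644 FPKM in mip40 and 36.7 and 35.0 FPKM in wt (-4.34). Of 13 eggshell and oogenesis genes 4 rose and 4 fell, of 8 fat body genes 0 rose and 4 fell, of 13 heat shock genes 0 rose and 2 fell, of 16 antimicrobial peptide genes 1 rose and 2 fell, and of 7 pigment and epithelium genes 1 rose and 2 fell.

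The shares of changed genes differed in size between chromosomes. The share of tested genes that fell was 29.8% on 2L, 27.5% on 2R, 25.5% on 3L and 25.7% on 3R, against 16.9% on the X (335 of 1986) and 13.6% on chromosome 4 (12 of 88). The share that rose was 29.3% on the X and 28.4% on chromosome 4 (25 of 88), against 22.4% to 26.4% on the 4 large autosomal arms. Of 22 tested genes of the Y, 7 (31.8%) fell and 3 (13.6%) rose. By biotype, 572 of 1262 ncRNA genes fell (45.3%) and 100 rose (7.92%), while 2686 of 11364 protein-coding genes fell (23.6%) and 3152 rose (27.7%). These shares describe the genes tested and were given no test.

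**Figure D4:**
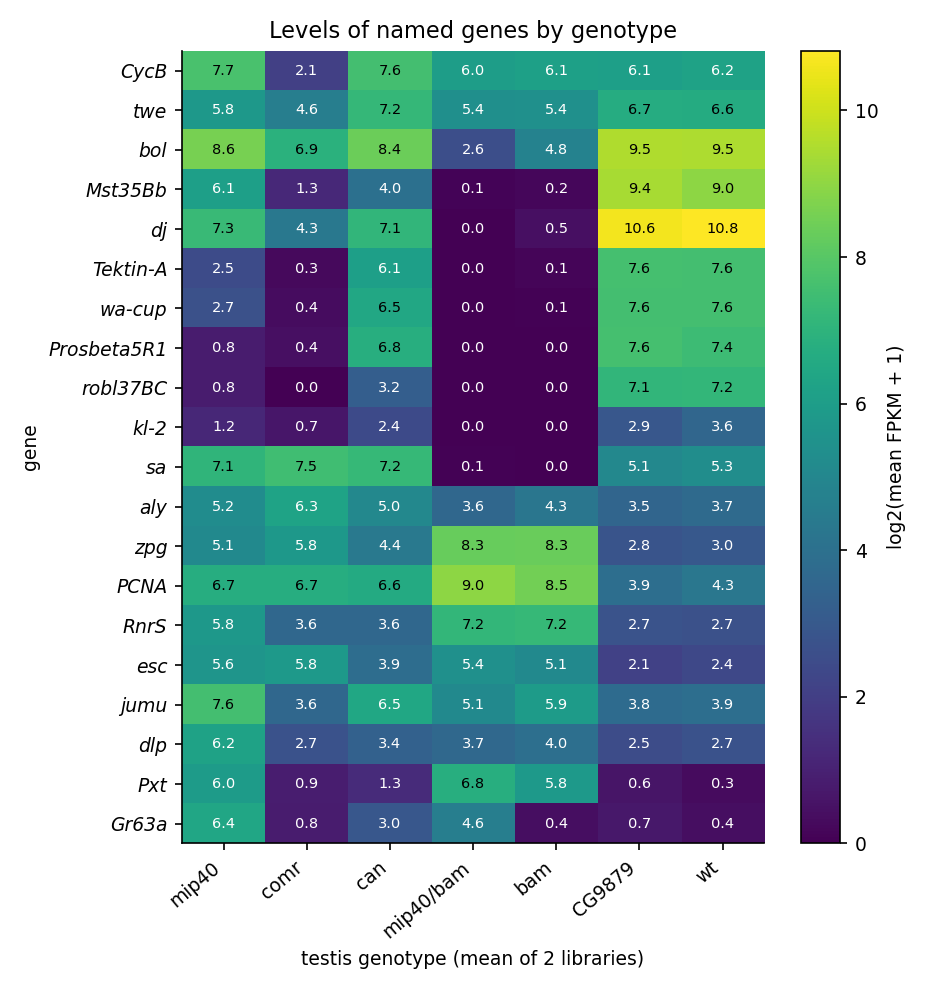
Levels of 20 named genes as log2(mean FPKM + 1) of 2 libraries in mip40, comr, can, mip40/bam, bam, CG9879 and wt testes, with the value in each cell. CycB is high in mip40 and can and low in comr, dj, Mst35Bb, Tektin-A, wa-cup and Prosbeta5R1 are at or near 0 in mip40/bam and bam, and Gr63a is highest in mip40.

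Against comr, mutant for another tMAC subunit, 5911 genes (45.6%) differed in mip40, 2933 higher and 2978 lower, and 2851 (22%) were higher and 2096 (16.2%) lower under both scalings, 38.1% in all. CycB showed the widest gap among meiotic genes: it was at 202 and 216 FPKM in mip40 and 3.15 and 3.14 FPKM in comr (log2 5.66, limma adjusted p = 1.68e-10). Levels of twe (log2 1.14) and bol (1.67) were also higher in mip40 than in comr, and 10 of the 17 meiotic genes were higher and 2 lower. Of 43 spermatid genes 20 were higher in mip40 and 2 lower. The protamine gene Mst35Bb was at 59.4 and 75.0 FPKM in mip40 and 0.866 and 1.92 FPKM in comr (log2 4.86), and fzo at 38.0 and 50.1 FPKM in mip40 and 1.16 and 2.41 FPKM in comr (4.04). Of 20 comet and cup genes 13 were higher and 1 lower, with w-cup at 47.8 and 56.9 FPKM in mip40 and 2.02 and 2.82 FPKM in comr (3.97). The betaTub85D gene did not differ by the test, at 367 and 409 FPKM in mip40 and 329.6 and 306 FPKM in comr (log2 0.28, SE 0.16, limma adjusted p = 0.174). The regulators themselves went the other way: of 9 tMAC genes, the mutated mip40 included, 0 were higher and 7 lower in mip40. The lowest log2 ratio of the 9 was that of mip40 itself (-2.26). The gene aly was at 40.8 and 32.9 FPKM in mip40 and 79.5 and 74.1 FPKM in comr (-1.05) and topi at 69.9 and 72.3 FPKM in mip40 and 168 and 157 FPKM in comr (-1.18). Of the genes with the largest rises against wt, Gr63a (5.58), Pxt (5.08), Phae1 (4.02), jumu (3.93) and dlp (3.5) were also higher in mip40 than in comr, and esc, at 56.4 and 54.9 FPKM in comr, was not called (-0.20). Of 20 muscle genes 2 were higher and 14 lower in mip40 than in comr (median -1.33), with summed levels of 235 and 363 FPKM in mip40 and 590 and 802 FPKM in comr, and their part was not tested. Muscle genes lower on the deposited values were 5 without the 4 libraries with accessory gland transcripts, against 15 with all libraries. Leaving out these 4, which leaves 1 comr and 1 wt library that are assumed to vary like the other groups, gave 5320 genes called against comr, with 2686 higher and 2634 lower.

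Against can, mutant for a tTAF, 6695 genes (51.6%) differed in mip40, 2453 (18.9%) higher and 3691 (28.5%) lower under both scalings, 47.4% in all. CycB, at 189.8 and 194 FPKM in can, was not called (log2 0.12, SE 0.08, limma adjusted p = 0.241). Spermatid genes were split, with 18 of 43 higher and 8 lower in mip40. On the deposited values alone 18 were higher and 10 lower. On dropping the 4 libraries that held accessory gland transcripts, which leaves 1 can library, these counts were 11 and 4. Mst35Bb was at 59.4 and 75.0 FPKM in mip40 and 15.5 and 14.6 FPKM in can (2.08), and Tektin-A at 4.04 and 4.95 FPKM in mip40 and 68.5 and 66.7 FPKM in can (-3.65). Several lists held genes lower in mip40 than in can: 7 of 9 Y-linked genes (0 higher), 7 of 12 axonemal dyneins (1 higher), 7 of 14 testis proteasome genes (2 higher) and 9 of 20 comet and cup genes (5 higher). Prosbeta5R1 was at 0.691 and 0.870 FPKM in mip40 and 105 and 114.5 FPKM in can (-5.96), and wa-cup at 4.94 and 5.95 FPKM in mip40 and 87.7 and 91.4 FPKM in can (-3.82). Higher in mip40 than in can were 9 of 19 stem cell and spermatogonial genes (0 lower) and 15 of 43 replication genes (4 lower). RnrS was at 54.4 and 52.4 FPKM in mip40 and 11.8 and 10.5 FPKM in can (2.17), and Cdc6 at 12.1 and 13.3 FPKM in mip40 and 1.18 and 1.54 FPKM in can (2.54). Of 20 muscle genes 1 was higher and 16 lower in mip40 than in can (median -1.34), with summed levels of 810 and 546 FPKM in can, and their part was not tested. Without the 4 libraries 5769 genes were called against can, with 2301 higher and 3468 lower, and 3 muscle genes were lower on the deposited values, against 17 with all libraries.

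The comparison of mip40/bam with bam sets the mip40 mutation in testes that lack spermatocytes, and shares no library with mip40 against wt. There 4682 genes (36.1%) differed, with 16.4% of all genes higher and 19.7% lower in mip40/bam than in bam. Under both scalings 2078 (16%) were higher and 2250 (17.3%) lower, 33.4% in all. The mip40/bam libraries were listed with 17480 gene identifiers and the bam libraries with 16745 gene symbols, so they rest on different annotation versions. Of the genes matched between them 97.7% had the same start and end, which does not show that their exons were the same, so annotation and genotype cannot be told apart in this comparison. Of the 3325 genes that rose in mip40, 660 rose in mip40/bam as well, 19.8% of these and 31.8% of the 2078 that rose there, and 916 fell there. Of the 3298 genes that fell in mip40, 267 fell in mip40/bam, 8.10% of these and 11.9% of the 2250, and 283 rose there. Sperm genes were low in bam, where dj averaged 0.369 FPKM, and 6 of 43 spermatid genes rose and 3 fell in mip40/bam. Ribosomal (74 of 92 rose, 1 fell) and general proteasome genes (25 of 31 rose, 1 fell) were higher in mip40/bam. As shares of the summed FPKM they differed less. The ribosomal list made up 28.4% and 27.8% in mip40/bam and 26.8% and 26.3% in bam. The general proteasome list made up 0.736% and 0.734% in mip40/bam and 0.640% and 0.654% in bam. Of 19 stem cell and spermatogonial genes 0 rose and 11 fell in mip40/bam, where 8 rose and 2 fell in mip40 against wt, and 12 of 43 replication genes rose and 3 fell. Of 20 muscle genes 13 rose and 1 fell in mip40/bam (median 1.20), with summed levels of 960.1 and 871 FPKM in mip40/bam and 465 and 561 FPKM in bam. Of 7 pigment and epithelium genes 4 rose and 0 fell (median 1.71). Their part in this comparison was not tested.

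Under the rule of the largest smaller change in both comparisons, CG11555, Gr63a, Rrp40, CG15484, CG5986 and CG43191 rose most and tna, CG16772, swi2, ex, CG34216 and CG11825 fell most. Of these 12 genes, Gr63a, CG16772 and CG34216 share no exon with another gene and the other 9 do. Apart from Gr63a, CG16772, CG34216 and CG11825, each of these was listed at 0 in at least 1 library of the 4 genotypes. Gr63a was at 23.2 and 23.9 FPKM in mip40/bam and 0.347 and 0.261 FPKM in bam (log2 4.24, limma adjusted p = 4.47e-07). Among protein-coding genes that share no exon, 368 rose and 167 fell in both comparisons. The rises included the actin nucleation subunit gene Arpc3B, at 79.9 and 68.9 FPKM in mip40/bam and 6.95 and 7.16 FPKM in bam (3.22, and 2.81 in mip40 against wt), the proton pump subunit VhaM9.7-a (2.45 and 3.11), fat-spondin (2.71 and 2.38) and the pigmentation gene y (3.39 and 2.28). The falls included mlt, a tubulin-chaperone-like gene, at 9.97 and 9.94 FPKM in mip40/bam and 32.1 and 23.1 FPKM in bam (-1.36 and -3.79), and aret, at 34.3 and 36.4 FPKM in mip40/bam and 109 and 96.5 FPKM in bam (-1.51 and -1.68).

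**Figure D5:**
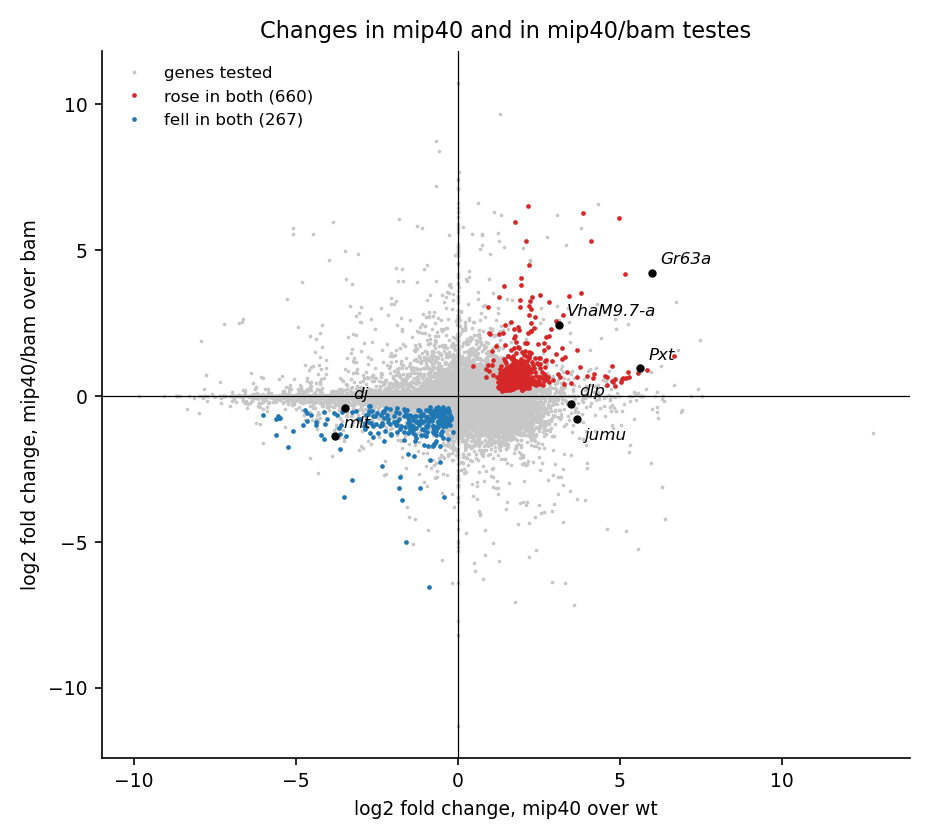
Log2 fold change in mip40/bam over bam (vertical) and in mip40 over wt (horizontal) for each gene tested, with the 660 genes that rose in both in red, the 267 that fell in both in blue and 7 named genes in black. Gr63a lies high on both axes, while jumu and dlp are high in mip40 over wt and below 0 in mip40/bam over bam.

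The change in mip40 against wt differed from that in mip40/bam against bam for 9084 genes (70%) by the interaction term. Of all genes, 44.1% were more positive and 25.9% more negative in the wt background. Under both scalings the counts were 2946 (22.7%) and 3360 (25.9%), 48.6% in all. Since a gene silent in bam cannot fall there, this count includes genes for which the bam background gives no reading. The mip40/bam libraries rest on another annotation version than those of mip40, wt and bam. Annotation and genotype therefore cannot be told apart in the interaction either, and wt and bam testes also differ in their cells. Among genes measured in bam, jumu was at 31.9 and 36.6 FPKM in mip40/bam and 63.1 and 55.6 FPKM in bam, a log2 fold change of -0.78, beside 3.66 in mip40 against wt (interaction 4.44, limma adjusted p = 1.30e-08). The gene shg was at 19.0 and 21.3 FPKM in mip40/bam and 36.2 and 36.2 FPKM in bam (-0.82 there and 2.22 in mip40 against wt, interaction 3.03).

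The authors' deposited table of mip40 against wt, made per transcript, lists 21081 transcripts, of which 5942 are marked significant, 2852 higher and 3090 lower in mip40. In the authors' deposited table the mip40 transcript is at 14.6 FPKM in mip40 and 28.0 FPKM in wt (log2 -0.94, q = 3.93e-04), and that of Pxt is significant at 45.3 FPKM in mip40 and 0.320 FPKM in wt. Gr63a stands in the authors' deposited table at 64.7 FPKM in mip40 and 0.407 FPKM in wt and is not marked significant (q = 0.0878). Other named genes with large changes are not marked there either, among them CG6209 (Cuffdiff q = 0.304), CG5139 (0.312), Phae1 (0.166) and Prosbeta4R2 (0.236). CG12506, CG5122 and Prosbeta5R1 are marked significant. For 51 genes, the authors' deposited table marks transcripts of 1 gene as significant in opposite directions. For the microtubule end-binding gene Eb1, which shares an exon with another gene, the authors' deposited table gives 4.44 FPKM in mip40 and 316 FPKM in wt for transcript RA, and 87.7 FPKM in mip40 and 19.9 FPKM in wt for transcript RB. For the proteasome gene Prosbeta7, the authors' deposited table gives 12.8 FPKM in mip40 and 186 FPKM in wt for RA, and 177 FPKM in mip40 and 32.2 FPKM in wt for RB. For fwd, a phosphatidylinositol kinase of spermatocyte cytokinesis, the authors' deposited table gives 1.33 FPKM in mip40 and 75.9 FPKM in wt for RC, and 14.2 FPKM in mip40 and 5.69 FPKM in wt for RB. For the dREAM/MMB gene l(3)mbt, the authors' deposited table gives 1.26 FPKM in mip40 and 6.26 FPKM in wt for RA, and 29.0 FPKM in mip40 and 12.8 FPKM in wt for RB. These 4 genes were chosen from the 51 after their values were seen.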

How the data were processed

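Polyadenylated RNA of testes was sequenced on a MiSeq from TruSeq libraries, per the labels' protocols. TopHat, Cufflinks, Cuffdiff and the builds dm3 and dm6 are named in the submitters' processing notes, without versions, and no source used here says whether strand was counted. The deposited gene tables hold FPKM that the authors made with Cufflinks, per the file headers, and no counts. Fragments per library were estimated from the FPKM confidence bounds in the tables. The authors' deposited comparison holds FPKM, log2 fold changes and p-values and q-values per transcript from Cuffdiff, per the file headers.

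Tables with different annotations were joined by symbols used once in each and lying at overlapping positions (16078 genes). Genes with at least 1 FPKM in at least 2 libraries (12971) were tested as log2(FPKM + 1), so fold changes of low genes are understated, with limma 3.58.1 (trend) in R 4.3.3 over all 14 libraries of 7 groups, with 7 residual degrees of freedom and Benjamini-Hochberg adjustment. A call is an adjusted p under 0.05. The fit was tested on simulated data, where false calls ran above the nominal rate. Tables and figures used Python 3.11.15, numpy 2.4.6, pandas 2.3.3 and matplotlib 3.10.9. Same-numbered replicates did not deviate together in the pairs of groups compared directly, so numbers were not used as pairs. The members and the gene lists were chosen with earlier results of these data known. Named genes were the 10 largest rises and falls called under both scalings, without overlap and with at least 10 FPKM in the higher group, up to 4 members per list, the mutated genes, and the 6 largest changes each way shared with mip40/bam; further members of the lists and genes that share no exon were added after their values were seen. Alternatives were other scalings, pseudocounts and filters, a replicate block, left-out libraries and a fit of mip40 and wt alone.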

Additional observations from a re-analysis of the deposited data

Results flagged for a closer look

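For 8 genes with large rises in mip40 against wt and a mean of at least 10 FPKM in bam, the change in mip40 against wt was larger than that in mip40/bam against bam by the interaction term (limma, adjusted p under 0.05). The log2 difference between the changes was 4.66 for Pxt, which was at 109 and 111 FPKM in mip40/bam and 54.9 and 56.9 FPKM in bam, 4.44 for jumu and 4.05 for CG14905. It was 3.77 for dlp, at 11.9 and 11.7 FPKM in mip40/bam and 15.2 and 13.9 FPKM in bam, and 3.18 for CG32625, at 145 and 149 FPKM in mip40/bam and 121 and 156 FPKM in bam. It was 3.02 for CG34323, 2.97 for esc, at 43.2 and 41.3 FPKM in mip40/bam and 32.0 and 36.1 FPKM in bam, and 2.08 for CG11263. These genes were picked for their change in mip40 against wt, which enters the interaction. The other annotation version of the mip40/bam libraries enters it too, and its part was not tested. Genes under 10 FPKM in bam had such differences too, among them wb (4.76), Phae1 (4.49), tinc (4.23) and wus (4.04). Groups of 2 libraries are too small to test for a library that stands apart.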

How the results depend on the processing

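The count of genes called in mip40 against wt was 9023 to 9091 when 1 library was left out, with 5850 to 5969 higher and 3059 to 3241 lower. With median-of-ratios scaling 3325 were higher and 5329 lower, and in the interaction of mip40 with bam 2946 were higher and 5228 lower. Against can, 2675 were lower in mip40 with quantile normalization. Among protein-coding genes that share no exon, an alternative chosen after seeing the data, 5638 were called, 3651 higher and 1987 lower, since fewer genes were tested. The other 112 counts stayed within 1.5 times, those against comr and can without the 4 libraries with accessory gland transcripts, also chosen after seeing the data, among them. Of the counts for single lists, 116 moved by more than 1.5 times and 668 did not, with 37 of the moves under median-of-ratios scaling and 21 among protein-coding genes that share no exon. On leaving out mip40 replicate 1, mip40 replicate 2, wt replicate 1 or wt replicate 2 in turn, 8, 4, 4 and 6 list counts moved so, the muscle falls each time.

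The replicate numbers did not pair the samples in the groups compared directly. Deviations of same-numbered libraries correlated at 0.0393 between mip40 and wt, -0.0198 with comr, -0.0308 with can and -0.000266 between mip40/bam and bam. Over all pairs of groups the correlation ran from -0.482 to 0.482, so in some other pairs the deviations were related. With the number as a replicate block 9491 genes were called in mip40 against wt, 5840 against comr, 6602 against can, 4621 in mip40/bam against bam and 9020 in the interaction.

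With median-of-ratios scaling the log2 fold change in mip40 against wt changed sign for s-cup (-0.74), rux (-1.01), eIF4G2 (-0.93), topi (-0.24), Myb (-0.46), tbrd-1 (-0.36), CG7229 (-0.33), bgcn (-0.96), alphaTub84B (-0.92) and eya (-0.40). Quantile normalization gave bgcn -0.28, equal summed FPKM gave mip40 0.20 and CycB3 0.19, and Pp1-Y1 ranged from -0.018 without wt replicate 2 to 0.42 without wt replicate 1. Of the values of single named genes over all alternatives, 2756 kept their direction and side of the threshold, 40 lost their call and 12 gained one. The cause was not tested. With 2 libraries a group and 3450000 and 3620000 fragments in mip40, folds that rest on few fragments in either group are imprecise, also where the FPKM is above 1, as for CG34170.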
